A study of Mus musculus with 1 sample.

Results

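Mitochondrial protein import genes were examined as a group by the poly(A) tails of their mRNAs. The members were the protein-coding genes of the GENCODE vM21 mouse annotation whose symbols begin with Timm (translocase of the inner mitochondrial membrane) or Tomm (translocase of the outer mitochondrial membrane). The rule found 26 genes, against 12842 genes with at least 1 usable read in the whole data set. Of the 26, 24 had a read, and 21 had the 10 transcripts that a gene value required. The tails came from wild-type mouse embryonic stem cells (ESCs) of the ICR strain that had been differentiated for 24 h into epiblast-like cells (EpiLCs), in N2B27 medium with activin A, bFGF and KSR. EpiLCs are cells on the way from naïve to formative pluripotency. The 1 sample held 2 replicates marked by barcodes, and Cnot8 knockout cells, the comparison of the study, were not analysed here. Tails were read by PAIso-seq, which copies whole mRNAs with their tails into circular cDNA and reads each molecule in repeated passes on the PacBio platform.

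Almost all mitochondrial proteins are encoded in the nucleus, made in the cytosol and carried into the organelle by these translocases. The TOM complex of the outer membrane has receptors that bind the incoming protein, a channel that lets it through and small subunits that hold the complex together. In the inner membrane, the TIM23 complex passes on proteins that carry a cleavable presequence and the TIM22 complex inserts carrier proteins, while the small TIM proteins escort membrane proteins across the space in between. A poly(A) tail is added to nearly every mRNA in the nucleus and is shortened in the cytoplasm by deadenylases, of which Cnot8 is one.

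The deposited reads give the tail of each molecule base by base. Those shown first are tails from 4 import genes with different median tails, though not the shortest or the longest of the group. Each is the read without another base that lay nearest to its gene's median tail and, among ties, had the most passes. The lengths are 71 nt for the receptor Tomm70a, 87 nt for the TIM23 subunit Timm17a, 112 nt for Tomm5 and 128 nt for Tomm7, both small subunits of the TOM complex. Bases other than A would stand in capitals.
Tomm70a, replicate 1: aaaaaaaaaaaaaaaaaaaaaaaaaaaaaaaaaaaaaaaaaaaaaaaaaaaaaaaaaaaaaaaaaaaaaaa
Timm17a, replicate 2: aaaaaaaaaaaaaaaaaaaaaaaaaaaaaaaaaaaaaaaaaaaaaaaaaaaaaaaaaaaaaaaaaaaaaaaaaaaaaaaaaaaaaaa
Tomm5, replicate 2: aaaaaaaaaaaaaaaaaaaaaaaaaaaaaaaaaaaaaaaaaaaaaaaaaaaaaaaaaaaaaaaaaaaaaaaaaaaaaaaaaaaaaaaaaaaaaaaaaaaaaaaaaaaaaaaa
Tomm7, replicate 1: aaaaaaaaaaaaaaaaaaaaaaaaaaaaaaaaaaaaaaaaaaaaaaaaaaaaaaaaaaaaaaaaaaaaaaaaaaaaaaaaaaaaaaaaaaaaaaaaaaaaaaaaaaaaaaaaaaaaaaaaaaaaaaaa

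Tails that ended in T are shown because this class, the DNA reading of a 3′ terminal U, gathered among short tails. They are the 4 reads with the most passes among import tails of 6 to 30 nt with a final T, and capitals mark the bases other than A.
Tomm70a, replicate 1: aaaaaaaaaaaaaaaTTT
Tomm70a, replicate 2: aaaaaaaaaaaaaaaaaTT
Tomm22, replicate 2: aaaaaaaaaaaaaaaaaaaaaaaaaaaT
Timm17a, replicate 1: aaaaaaaaaaaaaaaT

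Tails with 1 inner base other than A are shown as examples of that class. They are the reads with the most passes among import tails of 60 to 130 nt whose only other base, in capitals, was a G, a C or a T inside the tail.
Timm10, replicate 1: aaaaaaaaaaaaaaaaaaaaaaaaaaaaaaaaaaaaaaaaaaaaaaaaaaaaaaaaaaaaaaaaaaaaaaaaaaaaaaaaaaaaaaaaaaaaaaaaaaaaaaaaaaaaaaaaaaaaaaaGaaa
Tomm5, replicate 2: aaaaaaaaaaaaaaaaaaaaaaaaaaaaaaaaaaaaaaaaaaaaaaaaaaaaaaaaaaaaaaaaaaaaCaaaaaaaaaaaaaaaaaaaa
Tomm20, replicate 2: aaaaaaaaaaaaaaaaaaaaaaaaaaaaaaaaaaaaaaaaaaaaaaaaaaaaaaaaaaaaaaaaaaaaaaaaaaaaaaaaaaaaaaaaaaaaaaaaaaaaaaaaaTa

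A transcript here is 1 read with at least 7 passes, and tail length is the number of all bases of the tail. Replicate 1 had 354259 such reads and replicate 2 had 593361, of which 246316 and 455660 fell in nuclear genes. All 5 markers of epiblast-like cells and both pluripotency markers were detected. Of the 5 naïve markers, Zfp42, Esrrb and Nanog had 10 or more reads, Tbx3 had 4 and Klf4 1, which is under the 3 reads taken as the lowest detectable number. Of the other cell types that were checked, fibroblasts showed Thy1 at 2 reads with Col1a1, Col1a2 and Col3a1 at 0, and primitive endoderm showed Gata6 at 1 read with Gata4 and Sox17 at 0. Import genes took 954 transcripts in replicate 1 and 1366 in replicate 2, or 387 and 300 per 100000 nuclear transcripts. The labels do not say whether the replicates came from separate cultures, so their spread may be technical.

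The tail of a gene was taken as the geometric mean over its transcripts. The median over the import genes was 79.4 nt (21 genes, both replicates pooled), and 13 of the 21 (61.9%) lay over 75 nt, a length by which the study sorted functional groups of genes. Among 6754 nuclear protein-coding genes with at least 10 transcripts, the median was 75.5 nt and 51.0% lay over 75 nt. The median of the import genes exceeded that of all protein-coding genes by 3.98 nt in the pooled reads, but this was not larger than the spread between replicates. It was lower by 2.26 nt in replicate 1 (median 74.9 nt, 17 genes) and higher by 3.49 nt in replicate 2 (79.3 nt, 19 genes), which gives 0.618 nt ± 4.06 (SD, n = 2). In replicate 1, 8 of 17 import genes (47.1%) lay over 75 nt, below the 55.4% of all protein-coding genes in that replicate. In replicate 2, 11 of 19 (57.9%) did, above the 51.4% of all. In each replicate the median of the import genes was the value of Timm17a. Tomm70a and Timm17a were also left out, a setting chosen after seeing the data. The medians were then 82.2 nt in replicate 1 (15 genes) and 80.2 nt in replicate 2 (17 genes). They exceeded those of all protein-coding genes by 4.75 nt ± 0.497 (SD, n = 2). The median over all tested members thus did not set the import genes apart from all protein-coding genes beyond the replicate spread. This result depended on Tomm70a and Timm17a.

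The members differed from one another, but their quartiles lay closer together than those of all protein-coding genes. Gene tails ran from 60.2 nt for Timm21 to 130.5 nt for Tomm34, with quartiles of 72.4 nt and 89.0 nt. Against quartiles of 62.1 nt and 87.4 nt over all protein-coding genes, 7 members lay above the upper and 1 below the lower. Most single values were imprecise. The 95% interval of a gene tail, which covers counting error only, held 75 nt for 15 members and lay above it for 5 (23.8%) and below it for 1 (4.76%). By the same rule, the interval lay above 75 nt for 20.3% of all tested protein-coding genes and below it for 15%.

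**Figure D1:**
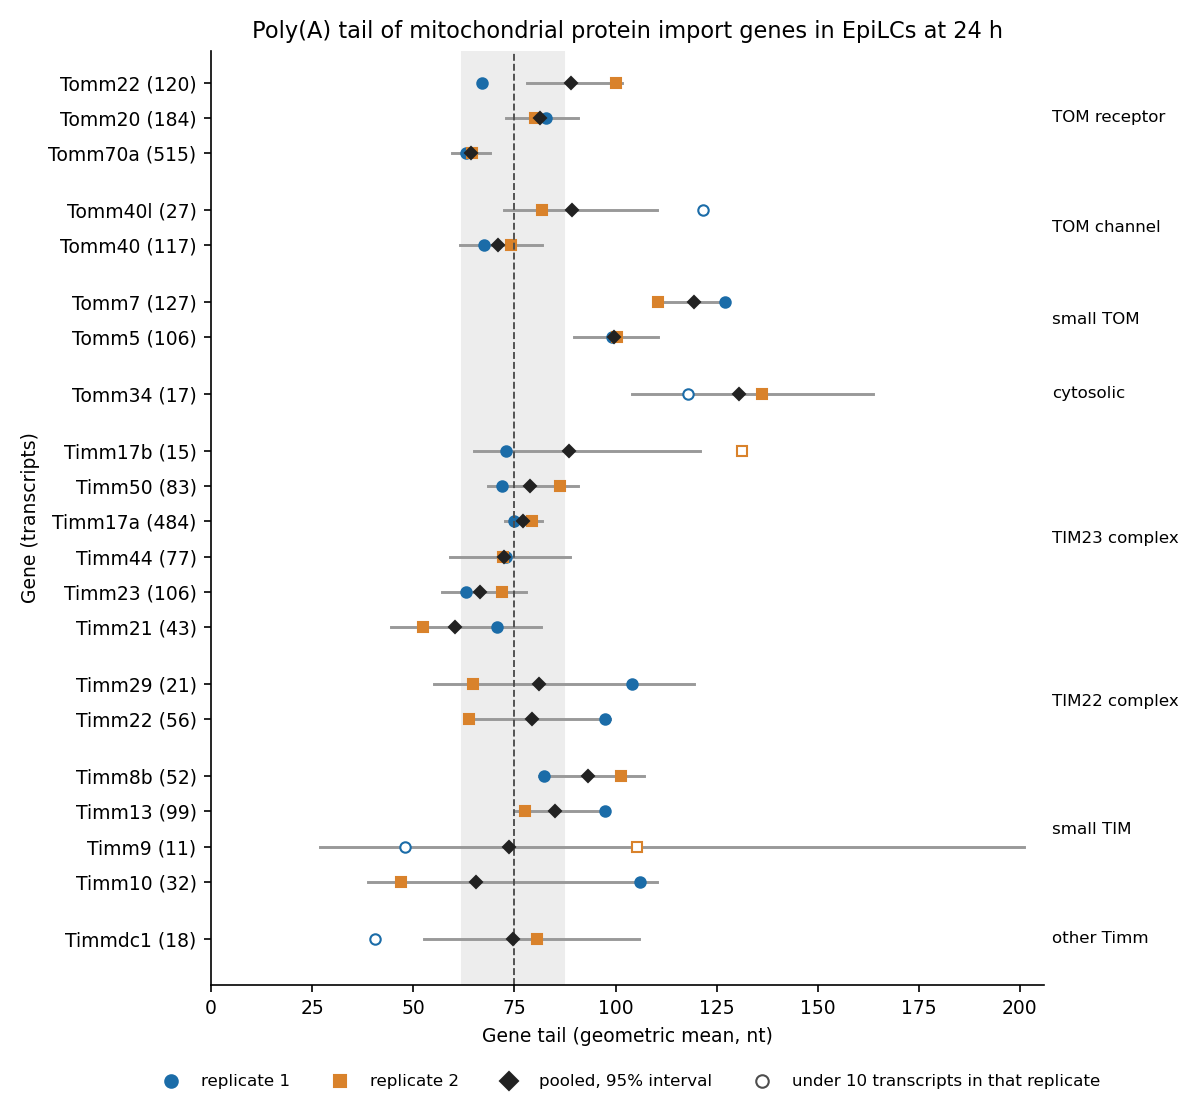
Gene tails of the 21 import genes with at least 10 transcripts, ordered by role, on an axis in nt. Circles and squares are the replicates, open where that replicate had under 10 transcripts, and diamonds with lines are pooled values with 95% intervals. The dashed line marks 75 nt and the grey band the quartiles of all protein-coding genes (62.1 nt and 87.4 nt). Tomm7, Tomm5 and Tomm34 lie to the right of the band with their whole intervals, and Timm10, Timm22 and Tomm22 have replicates on both sides of the dashed line.

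The receptors of the TOM complex did not share one tail length. Tomm70a (ENSMUSG00000022752, GRCm38 chromosome 16, 57121703 to 57156705), which receives carrier proteins and their chaperones, had a gene tail of 62.9 nt in replicate 1 and 64.6 nt in replicate 2. Tomm20 (ENSMUSG00000093904, chromosome 8, 126930667 to 126945844), the receptor for presequences, had 82.9 nt and 80.2 nt. Tomm22 (ENSMUSG00000022427, chromosome 15, 79670861 to 79673400), the central receptor that also organizes the complex, had 66.9 nt and 100.2 nt. Tomm20 was longer than Tomm70a in both replicates, by 17.8 nt ± 3.10 (SD, n = 2), and their pooled 95% intervals, 72.8 to 90.8 nt for Tomm20 and 59.7 to 68.9 nt for Tomm70a, did not overlap. Tomm70a, with 515 transcripts, was the 1 member whose whole interval lay under 75 nt. The place of Tomm22 between them rested on the replicate: in replicate 1 its 35 transcripts put it close to Tomm70a, and in replicate 2 its 85 transcripts put it above Tomm20.

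Tomm40 (ENSMUSG00000002984, chromosome 7, 19701313 to 19715438), the channel of the TOM complex, had a gene tail of 67.5 nt in replicate 1 against 74.1 nt in replicate 2, below 75 nt in each. Its paralogue Tomm40l gave 89.3 nt from 27 pooled transcripts, of which only 6 were from replicate 1. The intervals of the paralogues, 61.5 to 81.9 nt and 72.4 to 110.2 nt, overlapped. Exons of Tomm40l share 3304 nt with Nr1i3 on the opposite strand, to which no read was assigned.

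Among the small TOM subunits, tails were long in both replicates. Tomm7 (ENSMUSG00000028998, chromosome 5, 23838944 to 23844161), which modulates assembly of the complex, had gene tails of 127.2 nt in replicate 1 and 110.6 nt in replicate 2. Tomm5 (ENSMUSG00000078713, chromosome 4, 45105208 to 45108114), a small subunit bound to the channel, had 99.1 nt and 100.4 nt. Tomm7 lay above 98.6% of all tested protein-coding genes and Tomm5 above 90.7%, counting genes at or below the value. Tomm7 exceeded Tomm70a of the same complex by 64.3 nt in replicate 1 but by 46.0 nt in replicate 2, and Tomm5 exceeded it by 36.2 nt and 35.8 nt. Between the small subunits, Tomm7 was longer by 28.1 nt in replicate 1 but by 10.2 nt in replicate 2, or 19.2 nt ± 12.7 (SD, n = 2). Their pooled intervals did not overlap, but these cover counting error only. The third small subunit, Tomm6, had 0 reads, which allows up to 1.22 per 100000 nuclear transcripts in replicate 1 and 0.658 in replicate 2. Of its 1131 exonic nt, 859 are shared on the same strand with Gm21981, which also had 0 reads, so this 0 cannot be read as absence of expression.

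The contrast between Tomm7 and Tomm70a also showed in single molecules. Tails over 90 nt made up 85.5% of the 69 Tomm7 transcripts in replicate 1 and 70.7% of the 58 in replicate 2. For Tomm70a, the shares were 43.5% of 131 and 37.2% of 384. The Wilson 95% intervals of Tomm7, 75.3% to 91.9% and 58.0% to 80.8%, lay above those of Tomm70a, 35.3% to 52.1% and 32.6% to 42.2%. Among 127 Tomm7 transcripts the shortest tail had 37 nt. None had 1 to 5 nt, with a Wilson interval that reached 2.94%.

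Members that do not sit in the TOM complex made up the rest of the Tomm genes. Tomm34, a cytosolic cochaperone of import, had the longest gene tail of the group, 130.5 nt, but from 17 transcripts and with an interval of 104.0 to 163.7 nt. Tomm20l, a paralogue of Tomm20, had 0 reads.

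The TIM23 complex had 6 members, and their gene tails lay between 60.2 and 88.6 nt. Timm17a (ENSMUSG00000062580, chromosome 1, 135295213 to 135313778), which forms the translocation path with Timm23, had 74.9 nt in replicate 1 against 79.3 nt in replicate 2, from 484 transcripts in all. Timm23 (ENSMUSG00000013701, chromosome 14, 32180162 to 32201898) had 63.0 nt and 72.0 nt, and Timm50, the receptor of the complex, had 71.9 nt and 86.2 nt. Timm17a was longer than Timm23 by 9.59 nt ± 3.28 (SD, n = 2), yet their pooled intervals overlapped, as did those of Timm50 and Timm23. Timm17a was longer than the outer membrane receptor Tomm70a by 12.0 nt in replicate 1 and 14.7 nt in replicate 2, with intervals that did not overlap.

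Timm44, which tethers the import motor to the channel, had nearly the same gene tail in both replicates, 72.8 nt and 72.2 nt. Timm21, which links the TIM23 and TOM complexes, had the shortest pooled gene tail of the group, 60.2 nt. It had 70.7 nt in replicate 1, where Tomm70a, among others, was shorter at 62.9 nt. In replicate 2 it had 52.3 nt, where Timm10 was shorter at 47.0 nt. Timm17b, the X-linked paralogue of Timm17a, gave 88.6 nt from 15 transcripts, and the intervals of the paralogues overlapped.

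The TIM22 complex gave unstable values. Timm22 (ENSMUSG00000020843, chromosome 11, 76406952 to 76416292), its channel, had a gene tail of 97.4 nt in replicate 1 but of 63.8 nt in replicate 2, and the pooled interval of its 56 transcripts ran from 64.0 to 98.6 nt. Timm29, a further subunit, gave 81.1 nt from 21 transcripts. Both lay over 75 nt in the pooled reads and in replicate 1, and both lay under it in replicate 2.

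Small TIM proteins work as hexamers of Timm9 with Timm10, or of Timm8 with Timm13. Timm13 (ENSMUSG00000020219, chromosome 10, 80899450 to 80900969) had gene tails of 97.5 nt in replicate 1 and 77.6 nt in replicate 2. Timm8b had 82.2 nt and 101.3 nt, so that both members of that hexamer lay over 75 nt in each replicate while their order changed. Timm10 had 106.1 nt in replicate 1 but 47.0 nt in replicate 2, the widest gap among members with at least 30 transcripts. The gap came with very short tails. In replicate 2, 3 of the 19 Timm10 transcripts had 1 to 5 nt, against 0 of 13 in replicate 1. For the 0 of 13, the Wilson interval reached 22.8%. The median over transcripts of Timm10 came to 112.0 nt in replicate 1, against 100.0 nt in replicate 2, and its pooled gene tail of 65.4 nt became 100.8 nt when tails under 6 nt were left out.

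Timm9 gave 73.7 nt from 11 transcripts, with 1 tail of 1 to 5 nt and an interval of 27.0 to 201.1 nt. The other small TIM genes were too sparse for a gene value: Timm8a1 had 6 transcripts, Timm10b 3 and Timm8a2 1. Timmdc1, whose product takes part in the assembly of respiratory complex I, gave 74.7 nt from 18 transcripts.

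Taking only the 16 members with at least 10 transcripts in each replicate, 5 lay over 75 nt in both (Timm13, Timm8b, Tomm20, Tomm5 and Tomm7). This was 31.3% of them, beside 38.5% of 4018 protein-coding genes that met the same rule. In both replicates 5 others did not exceed 75 nt (Timm21, Timm23, Timm44, Tomm40 and Tomm70a), again 31.3%, beside 29.3% of all genes. The remaining 6 (37.5%) were divided between the replicates, beside 32.1% of all genes. Spearman's correlation of gene tails between replicates was 0.150 across these 16 genes and 0.497 across the 4018, with median absolute differences of 15.4 nt and 10.7 nt. Where both replicates had 30 or more transcripts of a gene, the correlation was 0.709 across 10 members and 0.670 across 1612 genes, and the median absolute difference was 7.81 nt and 6.96 nt. These correlations describe genes that share both libraries and their depth.

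At the level of single transcripts, import mRNAs followed the whole of protein-coding mRNAs closely. Their median tails were 91.5 nt (replicate 1) and 89.0 nt (replicate 2), against 91 nt in each for all protein-coding transcripts. Tails over 90 nt made up 50.1% ± 1.11 of import transcripts (SD, n = 2) and 50.1% ± 0.00402 of all. Pooled tail lengths ran from 1 to 286 nt, and 2.41% exceeded 200 nt, beside 2.38% over all genes.

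**Figure D2:**
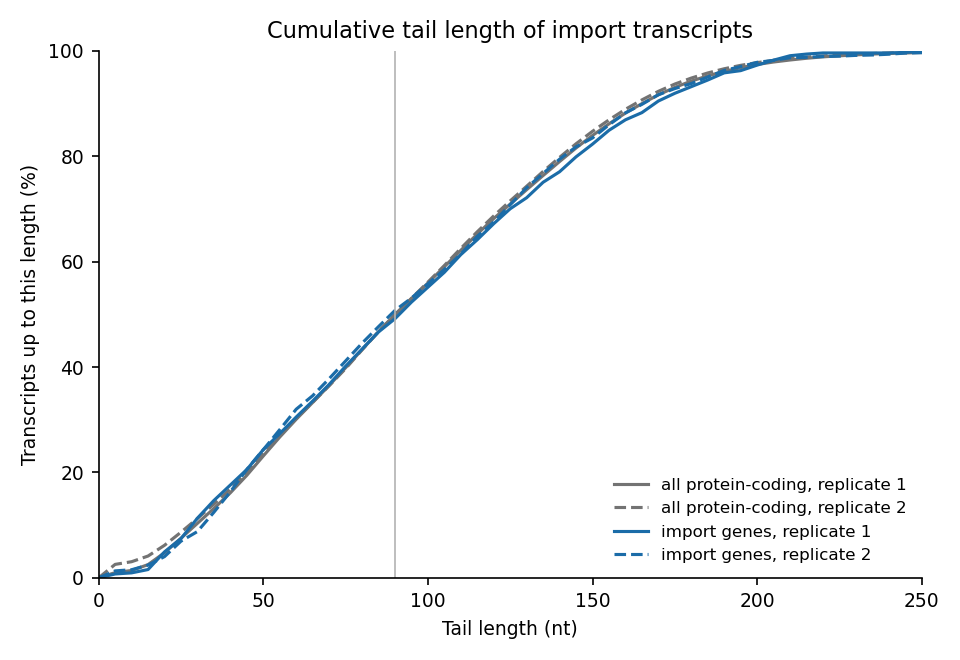
Share of transcripts (%) with a tail up to each length (nt), for import genes and all nuclear protein-coding genes in each replicate; the vertical line marks 90 nt. The 4 curves run together, and the share up to 90 nt is close to 50% in each.

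This likeness was a sum of unlike members. Tomm70a and Timm17a together held 999 of the 2320 import transcripts (43.1%). Without them, the median tail of import transcripts was 99.0 nt in replicate 1, close to the 100.0 nt of replicate 2, and the share over 90 nt was 55.0% ± 0.184 (SD, n = 2). Import transcripts were also divided differently between the replicates: Timm17a took 97.4 and 53.5 per 100000 nuclear transcripts in replicates 1 and 2, while Tomm70a took 53.2 and 84.3.

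Very short tails of 1 to 5 nt were counted next, since each lowers a geometric mean strongly. They were found in 7 of 954 import transcripts in replicate 1 (0.734%, Wilson interval 0.356% to 1.51%) and in 18 of 1366 in replicate 2 (1.32%, 0.835% to 2.07%). Among all protein-coding transcripts the shares were 0.988% (0.947% to 1.03%) and 2.55% (2.50% to 2.60%). In replicate 2 the interval of the import transcripts thus lay below that of all genes, while in replicate 1 it held the share of all genes. The other mitochondrial lists compared below had lower shares than the import genes in each replicate. In replicate 2 other import factors had 0.850% (0.596% to 1.21%), an interval that overlapped that of the import genes. Mitochondrial ribosomal protein genes had 0.617% there, and nuclear genes of oxidative phosphorylation subunits had 0.571%. The difference between replicates in all genes was larger than that between import genes and all genes in replicate 1. Of the 25 very short import tails, 7 belonged to Tomm70a and 3 to Timm10.

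Bases other than A occurred in 12.5% of import tails in replicate 1 and in 9.96% in replicate 2, or 11.2% ± 1.78 (SD, n = 2), beside 12.4% and 9.77% of all protein-coding tails. T, read from U, was the most frequent of them, in 6.04% ± 1.09 of import tails, followed by C in 3.43% ± 0.924 and G in 2.34% ± 0.100. All 3 shares lay within the replicate spread of those over all genes. Across members with at least 30 transcripts, the pooled share ran from 1.79% for Timm22 to 18.8% for Tomm40. The interval of Tomm40, 12.8% to 26.8%, lay above the 10.7% of all protein-coding tails, and its shares were 16.7% of 54 tails in replicate 1 and 20.6% of 63 in replicate 2. The replicate 1 interval, 9.02% to 28.7%, held the 12.4% of all genes, and Tomm40 is named as the highest of these members.

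A final T, as in the short tails printed above, was most frequent between 6 and 30 nt. There it closed 15 of 101 import tails in replicate 1 (14.9%) and 15 of 102 in replicate 2 (14.7%). For tails over 90 nt, the shares were 2.27% and 1.04%. All protein-coding genes showed the same order, with 15.7% of pooled tails of 6 to 30 nt and 1.60% of tails over 90 nt. Tomm70a held 29 of the 70 import tails over 5 nt that ended in T, with 10 of its 131 transcripts in replicate 1 (7.63%) and 19 of 384 in replicate 2 (4.95%, 3.19% to 7.60%). Over all protein-coding tails longer than 5 nt the shares were 4.19% and 2.80%. In replicate 2 the Tomm70a interval lay above the share of all genes, and in replicate 1 its lower bound was about at that share.

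Import genes were then set beside other nuclear-encoded mitochondrial genes. A list of 23 other import factors, made up of motor, chaperone, sorting and processing proteins, had a median gene tail of 87.7 nt in replicate 1 against 90.1 nt in replicate 2, over 16 genes each. For mitochondrial ribosomal protein genes the medians were 86.0 nt (58 genes) and 87.6 nt (68 genes). For nuclear genes of oxidative phosphorylation (OXPHOS) subunits they were 100.0 nt (65 genes) and 97.3 nt (69 genes). By these medians over genes, Timm and Tomm genes, with 74.9 nt and 79.3 nt, were thus the lowest of the 4 lists in each replicate. Over single transcripts, their order against the other import factors changed between replicates. The median tails were 91.5 nt against 89 nt in replicate 1 and 89 nt against 92 nt in replicate 2. Of the 5059 pooled transcripts of the other import factors, Hspd1 held 2382 and Hspa9 1208. The transcript medians of that list thus rest largely on these genes. In the pooled reads, a gene tail over 75 nt was found for 17 of the 19 other import factors (89.5%), for 79.7% of 74 ribosomal protein genes and for 93.2% of 73 OXPHOS genes, beside 61.9% of Timm and Tomm genes. These are descriptions, with no test across genes.

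**Figure D3:**
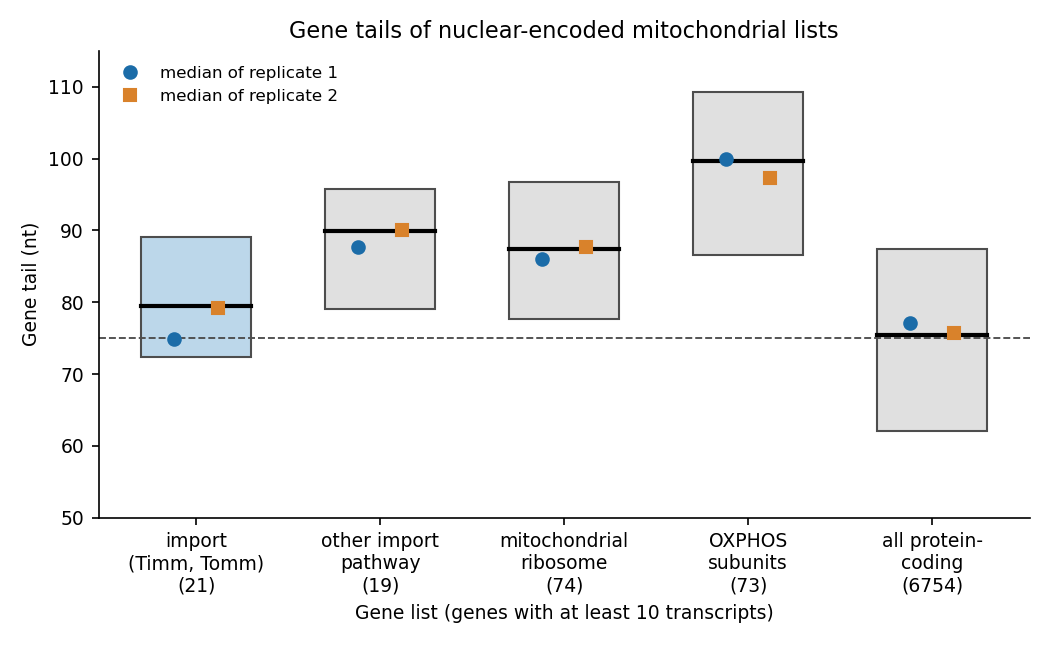
Gene tails (nt) of import genes, other import pathway genes, mitochondrial ribosomal protein genes, OXPHOS subunit genes and all nuclear protein-coding genes, with the number of genes under each name. Boxes run from the lower to the upper quartile of pooled values with the median as a bar, circles and squares are the medians of replicates 1 and 2, the dashed line marks 75 nt, and the axis starts at 50 nt. Both replicate medians of the Timm and Tomm genes lie under those of the other mitochondrial lists.

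Within the other import factors, the 3 longest with at least 30 transcripts were Dnajc19, a partner of the import motor, and Chchd4 and Gfer, which drive oxidative folding of the small TIM proteins. Their pooled gene tails were 97.9 nt, 97.8 nt and 97.5 nt. The 3 shortest were Pmpcb, a subunit of the processing peptidase that removes presequences, with 60.8 nt, Dnajc15, a cochaperone of the motor, with 76.4 nt, and Hspa9, the motor chaperone itself, with 78.3 nt. Pmpcb had 72.3 nt in replicate 2, with only 9 transcripts in replicate 1, whereas Hspa9, with 1208 transcripts, had 77.0 nt and 78.8 nt.

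Annotated transcript length was compared with the gene tail, because the lists differed in it. The longest annotated transcript of the tested members had a median of 2381 nt, against 1141 nt for OXPHOS genes and 3383.5 nt for all protein-coding genes. It was 1923 nt for mitochondrial ribosomal protein genes and 3135 nt for the other import factors. The other import factors thus had longer annotated transcripts than the members and also a higher pooled median gene tail, 89.8 nt against 79.4 nt. Across the 21 members Spearman's correlation of this length with the gene tail was -0.27, and across the 6754 protein-coding genes it was -0.36. Without Tomm7 and Tomm34 the members' value was -0.19, and without Tomm34 alone it was -0.28. Up to 1500 nt, 6 members had a median gene tail of 89.1 nt, beside 89.3 nt for 720 protein-coding genes. Between 1500 and 4000 nt, 11 members had 78.8 nt beside 77.2 nt. Over 4000 nt, 4 members had 79.2 nt beside 67.8 nt, with Tomm40l, Tomm20 and Timm17a above that value and Tomm70a below it. The points share both libraries.

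**Figure D4:**
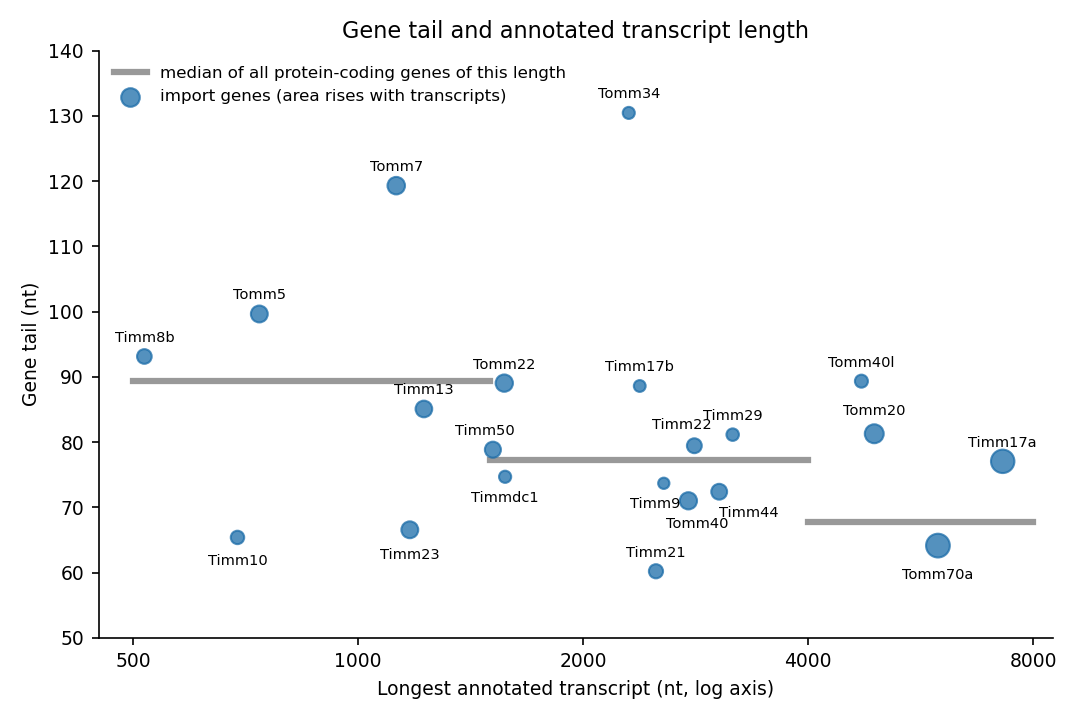
Gene tail (nt) against the longest annotated transcript (nt, log axis) for the 21 tested import genes, with point area rising with the number of transcripts. Grey bars are the median gene tails of all protein-coding genes up to 1500 nt, between 1500 and 4000 nt and over 4000 nt (89.3, 77.2 and 67.8 nt). Tomm7 and Tomm34 lie far above the bar of their length and Timm10 and Timm23 far below theirs.

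Several import genes have near-copies elsewhere in the genome, which could receive some of their reads or give reads to them. A search of all annotated transcripts for at least 90% identity over at least 200 nt found 25 near-copies of 9 members, and 19 of these had no read. Gm10273 (ENSMUSG00000069622, chromosome 10, 59395632 to 59396757), annotated as protein-coding, matched Timm23 at 99.9% over 1121 nt and held 255 transcripts, more than the 106 of Timm23. Gm14494 (ENSMUSG00000083097, chromosome 2, 153826171 to 153826605), a processed pseudogene, matched Tomm20 at 99.5% over 435 nt and held 189 transcripts beside 184. Gm9797 (ENSMUSG00000045455, chromosome 10, 11609223 to 11609835), a transcribed processed pseudogene, matched Timm8a1 at 100.0% over 612 nt and held 62 transcripts beside 6. Reads of such pairs cannot be told apart with certainty, so the values of Timm23, Tomm20 and Timm8a1 are uncertain.

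The tails of members and near-copies are given side by side. Likeness within a pair cannot be read as a result about the loci, because its reads cannot be told apart with certainty. Gm10273 had gene tails of 75.9 nt in replicate 1 against 68.1 nt in replicate 2, and it differed from Timm23 by 4.53 nt ± 11.9 (SD, n = 2). Gm14494 had 80.2 nt and 82.6 nt, and it differed from Tomm20 by -0.149 nt ± 3.58. Neither difference was larger than the spread between replicates. Gm9797 had 95.9 nt and 97.1 nt, with no comparison possible for the 6 transcripts of Timm8a1. With the reads added together, Timm23 had 70.5 nt, Tomm20 81.4 nt and Timm8a1 96.2 nt. The median over members was then 80.3 nt, and 14 of 22 lay over 75 nt, beside 51.1% of all protein-coding genes.

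**Figure D5:**
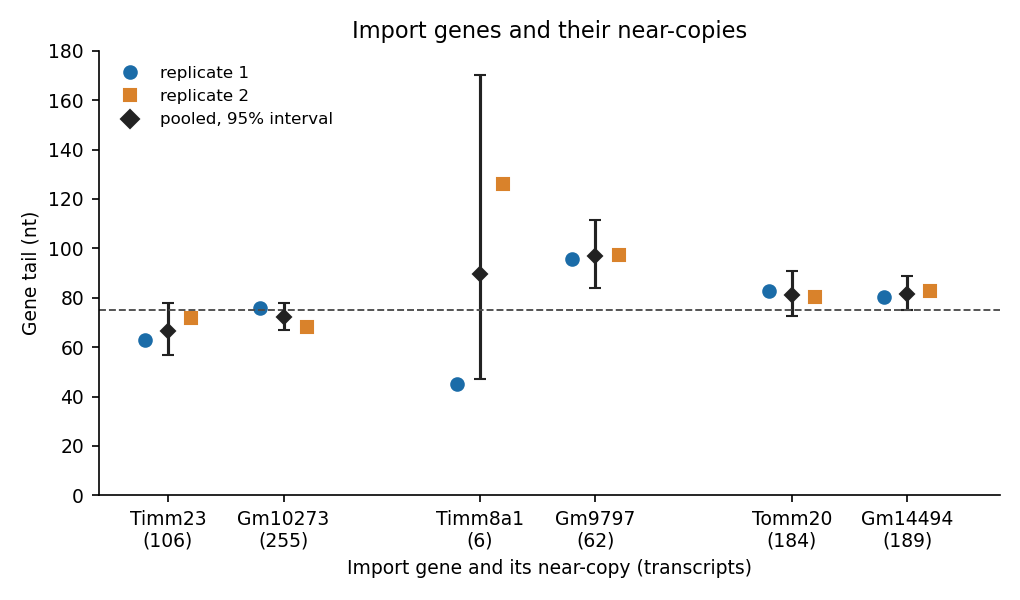
Gene tails (nt) of Timm23, Timm8a1 and Tomm20 beside those of their near-copies Gm10273, Gm9797 and Gm14494, with transcripts in brackets. Diamonds with bars are pooled values with 95% intervals, circles and squares are replicates 1 and 2, and the dashed line marks 75 nt. Timm23 and Tomm20 overlap with their near-copies, and Timm8a1, with 6 transcripts, has an interval from 47.0 to 170.3 nt.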

How the data were processed

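Poly(A) tails of 1 sample of wild-type EpiLCs at 24 h, with 2 barcoded replicates, were analysed. Per the methods and labels, the authors made circular consensus reads, split them by barcode, mapped them to mm10 with minimap2 (2.17), took the clipped bases beyond the alignment as the tail and assigned genes with featureCounts (2.0.1). The table they deposited gives, per read, the barcode, gene, passes, number of each base in the tail (a count of bases, with no normalization) and the tail sequence. In all 1013675 reads, the base numbers matched the sequence. The labels do not tie barcodes to replicates, so replicates are numbered by barcode.

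Reads with at least 7 passes were kept. Genes were placed with GENCODE vM21 (GRCm38, the same build as mm10), which held 12835 of 12842 gene identifiers. Replicate 1 had 246316 nuclear transcripts and replicate 2 had 455660; 3 reads correspond to 1.22 and 0.658 per 100000. Gene tails are geometric means of genes with at least 10 transcripts. Their 95% intervals come from the spread of log tail length over transcripts (t distribution), and intervals of shares are Wilson intervals. Reads carry no molecular identifiers, so both cover counting error only. With 1 group, no test between groups was made and no p-value is given. The background was all nuclear protein-coding genes.

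Members with at least 30 transcripts are given by replicate, those with 10 to 29 by pooled values and those under 10 by transcript numbers. Of the other import factors, the 3 longest and 3 shortest with at least 30 transcripts are named, and near-copies with at least 10. The members and lists were chosen with earlier results of these data known. Near-copies were searched with blastn (2.17.0). Alternatives changed the pass filter, the length measure, the shortest tail, the gene summary, the transcripts per gene, the background and the replicates. The tail summary was tested on simulated data. The software was Python (3.11.15) with scipy (1.17.1), pandas (2.3.3), numpy (2.4.6) and matplotlib (3.10.9).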

Additional observations from a re-analysis of the deposited data

Results flagged for a closer look

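Reads assigned to near-copies of import genes, which the gene values above leave out, exceeded the 3 reads taken as the lowest detectable number in 3 cases. Gm10273, the near-copy of Timm23, held 255 transcripts. Gm14494, the near-copy of Tomm20, held 189, and Gm9797, the near-copy of Timm8a1, held 62. The share of each pair's transcripts assigned to the import gene was 29.4% for Timm23, 49.3% for Tomm20 and 8.82% for Timm8a1. How the reads of each pair divide between the loci was not tested. With 2 replicates in 1 group, no sample could be tested for standing apart.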

How the results depend on the processing

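No paired analysis was possible because the data hold 1 group. Of 63 values recomputed under another setting, 53 moved by less than the replicate spread (counts by less than 1.5 times). That spread comes from the same replicates that were also left out in turn. For the excess over all protein-coding genes it was 4.06 nt, larger than the excess of 3.98 nt itself. The 53 is therefore no measure of robustness. The median gene tail of import genes ranged from 74.9 to 79.3 nt when 1 replicate was left out. Its excess over all protein-coding genes ranged from -2.26 to 3.49 nt, changing sign without replicate 2, and the number of members over 75 nt from 8 to 11. With Tomm70a and Timm17a left out, the excess was positive in each replicate, 4.75 nt ± 0.497 (SD, n = 2). The gene summary moved the level: with the median of the transcripts the median gene tail was 90.5 nt, with the arithmetic mean 99.1 nt, and without tails under 6 nt 85.3 nt. All 21 tested members exceeded 75 nt with the arithmetic mean, as did 87.4% of protein-coding genes. Ignoring the first and the last base, 7.50% of import tails held a base other than A. In 2 settings chosen after seeing the data, near-copy reads were added, which moved no group value by more than that spread, or Tomm70a and Timm17a were left out, which gave a median transcript tail of 100.0 nt and 55.0% of tails over 90 nt. Single gene tails kept their side of 75 nt in 13 of 21 members with the arithmetic mean, in 15 of 21 with the median of the transcripts, in 17 of 21 without tails under 6 nt, in 16 of 19 without replicate 1 and in 12 of 17 without replicate 2. These counts were not made over all protein-coding genes, so they do not show whether import genes differ in this. The 19 and the 17 are members with at least 10 transcripts in the replicate kept, whose reads are also part of the pooled values. Depth limits the 6 members with 10 to 29 transcripts most.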

Other observations

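Differences between replicates in the share of transcripts were uneven among import genes. Relative to all nuclear transcripts, Timm23 in replicate 2 was at 0.384 times its level in replicate 1, Tomm5 at 0.447 times and Tomm7 at 0.454 times. Tomm70a was at 1.58 times and Tomm22 at 1.31 times. Across the 21 tested members Spearman's correlation of this ratio with the longest annotated transcript was 0.17, beside 0.19 across 6736 protein-coding genes; the points share both libraries.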
